A study of Drosophila melanogaster with 3 samples.

Results

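The regions described here are 925 weaker regions called for the zinc finger protein CG4424 in Drosophila embryos. They lay outside the authors' optimal set of regions and nevertheless each overlapped a stronger region in every replicate list. They were selected on measured values. A region of the pooled list was a member when it overlapped no optimal region and overlapped, by at least 1 bp, a region among the 10000 of highest signal in each of the 3 replicate lists. The members made up 4.35% of the 21288 pooled regions that overlapped no optimal region, and 3.18% of all 29056 pooled regions. The remaining 20363 regions outside the optimal set are called other weaker regions, and the optimal regions are those that the authors kept by their irreproducible discovery rate, a measure of how well replicates agree on the rank of a region.

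The chromatin came from whole embryos of both sexes, 0 to 16 h old, of a transgenic line that stably expresses CG4424 with GFP at its C terminus, and was brought down with an antibody to GFP. The 3 biological replicates form 1 group, and no label used here says whether they came from separate crosses or collections. The tagged protein was read in the whole embryo, so the cells it was bound in are not known. In the relaxed lists, 22198, 30000 and 29796 regions were called in replicates 1, 2 and 3.

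CG4424 belongs to the large class of proteins whose zinc fingers, small folds held by a zinc ion, contact DNA. Chromatin immunoprecipitation followed by sequencing counts the DNA fragments that come down with such a protein, and a region is called where they pile up over a control. Where occupancy is low, or where a site is occupied in few of the cells, the pile is small and lies close to the background. Repeated measurement helps to tell such regions from noise that varies between replicates, but not from background that recurs in each.

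The DNA at the summit of the strongest members is shown first, because it gives the base composition that the comparisons below turn on. Each sequence is centred on the pooled summit and reaches 50 bp to either side, on the plus strand of dm6, read from the RefSeq copy of that assembly. Capitals mark the 8 hexamers, on either strand, that were most enriched in the optimal regions and also passed the test in the members. For 6 of the members of highest pooled signal the sequence is given under the gene with the nearest transcript start.
asRNA:CR43470, chr3L:7254595-7254695: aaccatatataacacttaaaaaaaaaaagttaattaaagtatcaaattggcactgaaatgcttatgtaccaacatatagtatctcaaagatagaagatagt
CG5160, chr2L:7395895-7395995: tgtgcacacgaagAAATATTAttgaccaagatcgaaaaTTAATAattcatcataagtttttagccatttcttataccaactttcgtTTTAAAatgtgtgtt
CG32369, chr3L:7792375-7792475: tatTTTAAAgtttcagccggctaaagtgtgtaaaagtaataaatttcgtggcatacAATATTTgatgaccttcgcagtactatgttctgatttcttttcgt
CG3777, chrX:345477-345577: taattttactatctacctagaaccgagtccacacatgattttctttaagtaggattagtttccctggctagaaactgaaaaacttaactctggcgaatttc
CG34376, chr3R:22447892-22447992: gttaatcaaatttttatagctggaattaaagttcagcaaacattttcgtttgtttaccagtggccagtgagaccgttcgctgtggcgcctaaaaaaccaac
Cow, chr3R:23112814-23112914: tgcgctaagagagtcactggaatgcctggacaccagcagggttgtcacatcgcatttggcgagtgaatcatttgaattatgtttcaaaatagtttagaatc
Most of these windows are rich in A and T, with a GC content between 24.8% and 42.6%, and 2 of the 6, at CG5160 and CG32369, held any of the 8 hexamers. The windows at CG5160, CG34376 and Cow lay in promoters, and the others lay in introns.

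The next 4 sequences are further members of high pooled signal that held a word higher at the summits than in the flanks. They were not always the strongest such members. On the other strand, the window at CG34376 above also held TATAAA and TAAACA, and those at Cow and trx held TCTAAA. Capitals mark that word on either strand: the TATA box TATAAA at lncRNA:CR44692, the forkhead word TAAACA in the gene trx, and the hexamers TCTAAA at lncRNA:CR45668 and ATATTC at laza.
lncRNA:CR44692, chrX:17495367-17495467: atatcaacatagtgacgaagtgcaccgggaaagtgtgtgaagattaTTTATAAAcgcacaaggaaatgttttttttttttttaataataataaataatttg
trx, chr3R:14284569-14284669: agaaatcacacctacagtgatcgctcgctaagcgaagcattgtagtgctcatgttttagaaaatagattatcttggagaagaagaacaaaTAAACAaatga
lncRNA:CR45668, chrX:5892230-5892330: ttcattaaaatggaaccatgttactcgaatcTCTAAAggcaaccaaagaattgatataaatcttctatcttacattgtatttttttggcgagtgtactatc
laza, chr3L:22461389-22461489: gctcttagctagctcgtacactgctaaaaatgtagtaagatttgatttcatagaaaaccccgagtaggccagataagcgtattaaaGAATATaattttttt
The window in trx, which encodes the histone methyltransferase Trithorax, lay in an intron 743 bp from the nearest optimal summit. The window at laza, a lipid phosphate phosphatase, lay 308 bp upstream of the start.

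The signal, which chose the members and is given as a description only, put them directly below the optimal set. The pooled signal of the members ran from 58.7 to 186.1, with a median of 165.9, and the optimal regions began at 186.192. The strongest member, in an intron near loopin-1, had a pooled signal of 186.054 and ranked 6424. The median pooled signal was 79.8 in other weaker regions and 318.4 in optimal regions. The members therefore form a band next to the optimal threshold: 300 ranked from there to 7000, where they were 58.8% of the weaker regions, and 308 ranked from 7001 to 8000, where they were 34.3%.

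In the replicates the members also lay low within the strong range. Their median rank was 7534, 7694 and 7635 in replicates 1, 2 and 3. Their median signal was 44.7, 66.5 and 56.9, beside 36.1, 53.2 and 46.9 at rank 10000. These values are read only within a list, since the unit of the signal is not given. Of the 925 members, 430 were in no replicate among as many of its strongest regions as the optimal set holds, 405 were in 1 replicate, 83 in 2 and 7 in all 3. The replicate summit lay at a median of 38, 29 and 29 bp from the pooled summit. The rank limit, which chose the members, also bounds how many weaker regions can match in any replicate. Of the 21288 regions outside the optimal set, 3691 (17.3%), 3942 (18.5%) and 3813 (17.9%) matched in replicates 1, 2 and 3. By number of replicates, 13995 matched a region among the 10000 strongest in none, 4065 in 1 and 2303 in 2.

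**Figure D1:**
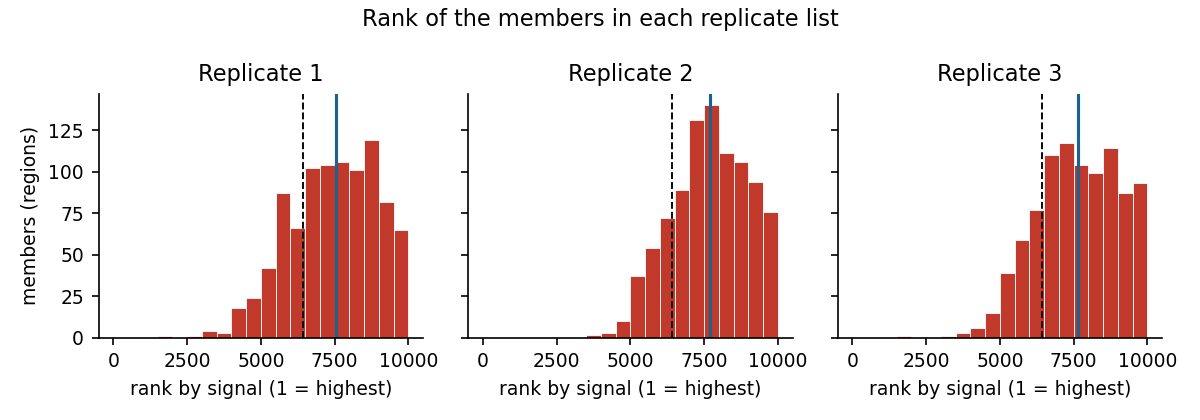
Number of members (y axis, in bins of 500 ranks) by rank in the list of each replicate (x axis), with the median as a blue line and the size of the optimal set as a dashed line. The medians lie at 7534, 7694 and 7635, to the right of the dashed line in each replicate, and no member lies beyond rank 10000 because the selection ends there.

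The members at the threshold differed in pooled rank. The member of worst replicate rank, 9992 in replicate 3, lay 135 bp upstream of Spn28Db, a serpin gene, and ranked 7798 in replicate 1 and 7214 in replicate 2. Next inside was an overlapping pair 20138 and 20341 bp upstream of heca, matched by the same replicate regions at ranks 8977, 9799 and 9990. In the pooled list this pair ranked 22749 and 8581, the first far below the median member, and the region at Spn28Db ranked 7932. Just outside, at rank 10004, were a pair of regions at the start of glec in replicate 1 and a region 956 bp upstream of fax in replicate 2.

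A minority of members lay partly over a stronger neighbour in the pooled list. In all, 197 members (21.3%) overlapped a pooled region of higher signal, against 2230 other weaker regions (11.0%). Of the 161 members with a pooled rank over 10000, 152 (94.4%) did so, and the median distance from their summit to the matched replicate summits was 216 bp, against 22 bp for the 764 members ranked up to 10000. The low-ranked members thus mostly lay across a stronger region. Outside the optimal set, 773, 758 and 774 of the 10000 strongest regions in replicates 1, 2 and 3 overlapped a member. Some of the 925 members therefore shared a replicate region and are not separately reproduced sites. In the 728 members that overlapped no stronger pooled region, the promoter, upstream and GC comparisons given below kept their direction and their call.

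The members lay between the optimal and other weaker regions in their use of promoters, here the 500 bp to either side of any annotated transcript start. Of the 925 summits, 322 were in promoters, 34.8% (95% exact interval 31.74 to 37.98), against 24.0% of other weaker and 46.8% of optimal summits. Fisher's exact test gave an odds ratio of 1.69 against other weaker regions (adjusted p = 9.2e-12) and 0.607 against optimal regions (adjusted p = 4.3e-11). The first difference was lost when the pooled ranks compared were narrowed: among weaker regions ranked down to 12000 the odds ratio was 1.06 (exact adjusted p = 0.633). In the narrower range down to rank 8000, chosen after the data were seen, 34.4% of 608 members and 40.5% of 800 other weaker regions were in promoters, an odds ratio of 0.770 in the opposite direction (exact adjusted p = 0.0582). Within both ranges the members still ranked higher, since 300 of them and 210 other weaker regions ranked down to 7000. Against the 925 optimal regions of lowest signal, of which 40.1% were in promoters, the odds ratio was 0.797 (exact adjusted p = 0.0492).

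**Figure D2:**
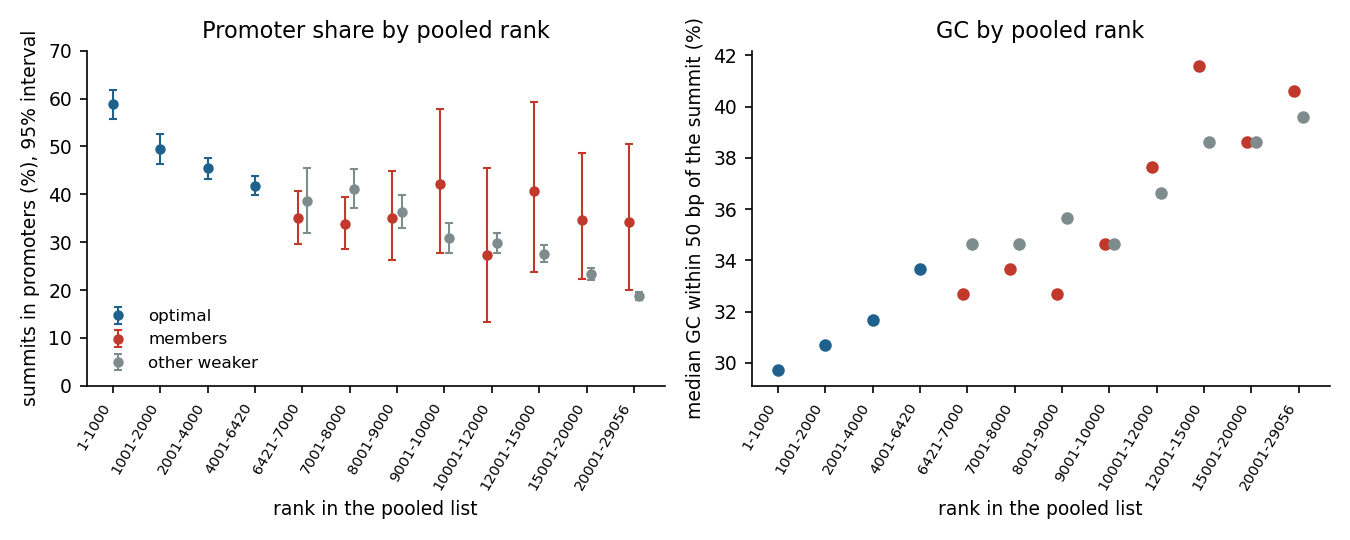
Share of summits in promoters with 95% exact intervals (left, in percent) and median GC within 50 bp of the summit (right, in percent) by rank in the pooled list, for optimal regions (blue), members (red) and other weaker regions (grey). From rank 7001 to 8000 the promoter share was 33.8% in members and 41.2% in other weaker regions, and median GC was 33.7% and 34.7%.

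Coding exons were nearly empty of members. Only 2 summits lay in coding exons, 0.216%, against 3.51% of other weaker summits (odds ratio 0.0596, adjusted p = 4.4e-11, Fisher's exact test) and 0.296% of optimal summits. In 3' untranslated regions lay 1.30% of members and 3.43% of other weaker regions (odds ratio 0.370, exact adjusted p = 3.1e-04). Members were near other weaker regions in 5' untranslated regions (0.973% against 1.01%) and noncoding exons (0.757% against 0.909%). Introns held the most members, 364 or 39.4%, against 43.8% of other weaker and 35.0% of optimal summits, with odds ratios of 0.833 (exact adjusted p = 0.0191) and 1.20 (adjusted p = 0.0225). Intergenic sequence held 22.6% of members, close to the 23.3% of other weaker regions (odds ratio 0.959, exact adjusted p = 0.806) and above the 15.4% of optimal regions (odds ratio 1.60, adjusted p = 4.0e-07). Of the 14 comparisons over 7 kinds of place, 7 passed the adjusted threshold of 0.05. At pooled ranks down to 12000 the coding exon difference from other weaker regions no longer passed (0.125% against 0.802%, exact adjusted p = 0.118), nor did those of 3' untranslated regions (1.38% against 1.77%, adjusted p = 0.670) and introns (odds ratio 0.934, adjusted p = 0.633). The places that passed in that range were all against optimal regions.

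The replicates' own summits at the members, nearly the same loci by selection, had similar places. Over the 3 replicates, 35.4% ± 0.426 (SD, n = 3) of the summits that matched members were in promoters, 39.3% ± 0.504 in introns and 22.0% ± 0.414 in intergenic sequence. Other regions among the 10000 strongest outside the optimal set, mostly not shared by all replicates, had 36.2% ± 4.07 in promoters, so the promoter share of members was within the replicate spread of theirs. The remaining regions of the lists had 21.7% ± 1.19. The 2 spreads are unlike, since the members' summits come from nearly the same loci in each replicate and the other regions mostly do not. These replicate values are a description, since each replicate took part in choosing the members.

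**Figure D3:**
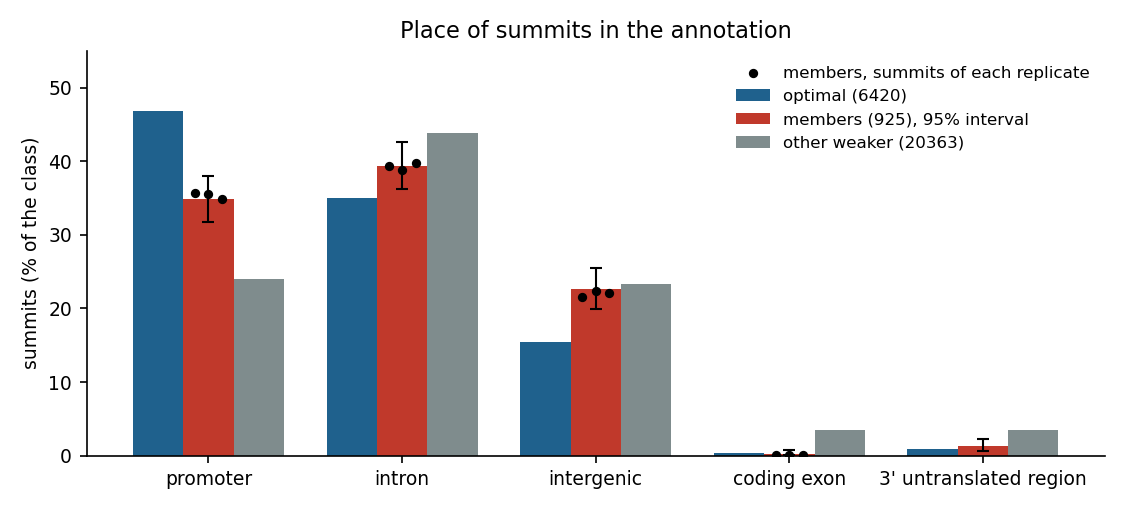
Percent of summits (y axis) by place for optimal regions (blue), members (red, with 95% exact intervals) and other weaker regions (grey), with the members' summits in each of the 3 replicates as black points where they were computed. Members lie between the other classes in promoters, at 34.8%, and near other weaker regions in intergenic sequence, at 22.6%.

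Within promoters, members sat mostly upstream of the start. Of the 322 promoter members, 231 (71.7%) were upstream of the nearest start, against 58.6% of other weaker (odds ratio 1.79, adjusted p = 2.5e-06, Fisher's exact test) and 83.1% of optimal promoter summits (odds ratio 0.518, adjusted p = 2.5e-06). The median position was 79 bp upstream in members, 37 bp upstream in other weaker regions and 110 bp upstream in optimal regions. Within the 200 bp upstream of the start lay 44.1% of promoter members, against 35.2% and 57.3%. At pooled ranks down to 12000 the difference from other weaker regions passed, with 72.8% against 66.4% upstream (odds ratio 1.36, exact adjusted p = 0.0415). At pooled ranks down to 8000, the range chosen later, the upstream share was 73.2% in members and 73.8% in other weaker regions (odds ratio 0.972, exact adjusted p = 0.920). Against the weakest optimal regions, 78.2% upstream, the odds ratio was 0.709 (exact adjusted p = 0.0529). In the replicates' own summits 73.6% ± 2.87 (SD, n = 3) of promoter members were upstream.

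**Figure D4:**
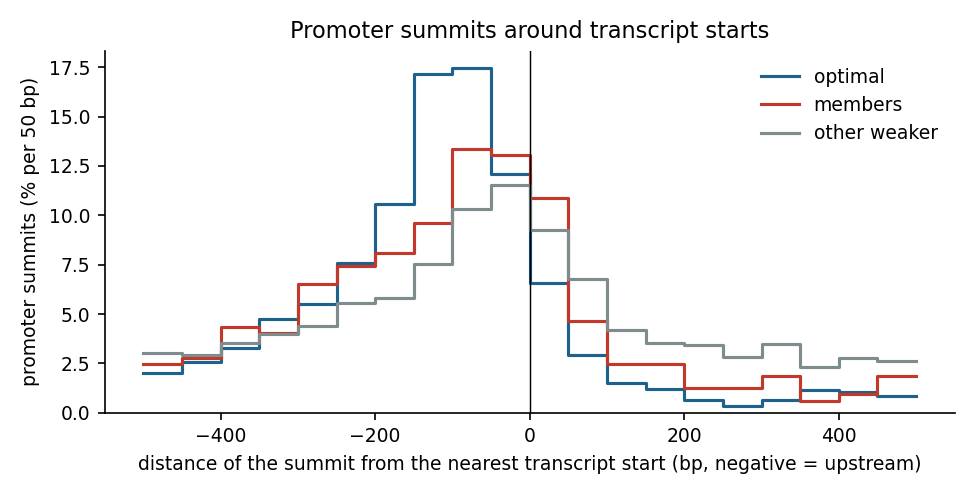
Percent of promoter summits per 50 bp (y axis) by distance from the nearest transcript start (x axis, negative upstream) for optimal regions, members and other weaker regions. Members are highest between 100 and 51 bp upstream, at 13.4%, where optimal regions hold 17.5% and other weaker regions 10.3%.

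The summits of members were poor in G and C. Median GC within 50 bp of the summit was 34.7% in members, 38.6% in other weaker regions and 31.7% in optimal regions. Windows above the median of all pooled regions (36.6%) were 38.3% of members, 55.7% of other weaker regions (odds ratio 0.494, adjusted p = 7.5e-25, Fisher's exact test) and 28.5% of optimal regions (odds ratio 1.56, adjusted p = 2.2e-09). The order held inside promoters, with medians of 35.6%, 40.6% and 32.7%, and outside them, with 33.7%, 38.6% and 31.7%, and all 4 of these comparisons passed. The GC difference from other weaker regions kept its direction and its call in both ranges of pooled rank. Down to rank 12000, 34.6% of members and 44.5% of other weaker regions were above the median (odds ratio 0.661, exact adjusted p = 5.0e-07). Down to rank 8000, 32.7% of members and 39.4% of other weaker regions were above the median (odds ratio 0.749, exact adjusted p = 0.0238). By narrower bins, median GC of members and other weaker regions was 32.7% and 34.7% down to rank 7000, 33.7% and 34.7% down to 8000, and 34.7% in both from 9001 to 10000. Beyond rank 10000 it was not lower in members, with 37.6% against 36.6% down to 12000 and 41.6% against 38.6% down to 15000, and the 161 members there had a median of 39.6%. No difference from the 925 weakest optimal regions was detected, with 37.0% above the median (odds ratio 1.06, exact adjusted p = 0.598).

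The low GC was local. Mean GC of members fell from 43.3% at 350 bp below the summit to 34.9% at the summit and stood at 43.6% at 350 bp above it. At the same places other weaker regions had 42.1%, 38.9% and 42.0%, and optimal regions had 44.3%, 32.9% and 44.4%. Members thus had the shape of optimal regions with a shallower dip. In the replicates' own summits the median was 34.0% ± 0.572 (SD, n = 3) for members and 37.0% ± 2.29 for other strong regions outside the optimal set.

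**Figure D5:**
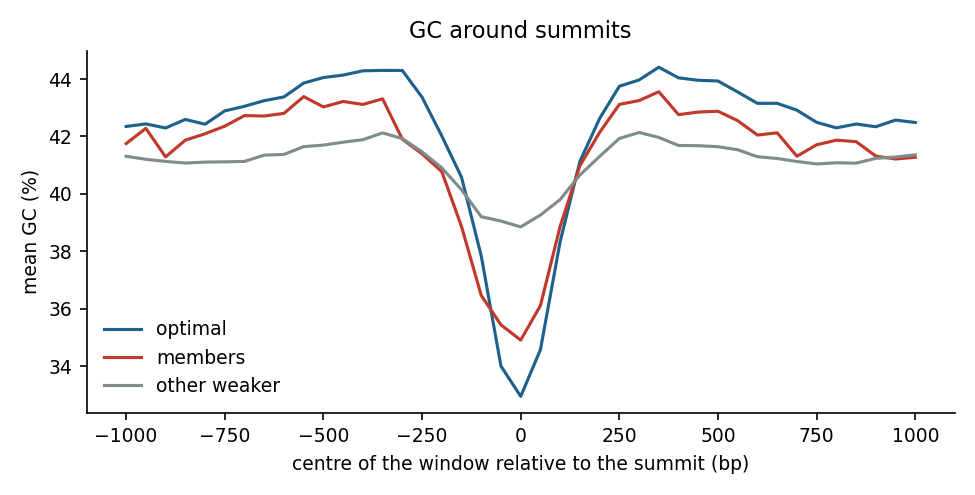
Mean GC in percent of windows 51 bp wide (y axis) by the position of the window's centre relative to the summit (x axis, bp). Lines are for optimal regions, members and other weaker regions. The dip at the summit reaches 32.9%, 34.9% and 38.9%.

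Short words were counted at the summits and in flanks of the same width 500 bp away, on both strands, and compared with the exact McNemar test. Of all hexamers, counted with their reverse complements, 163 (7.84%) were higher at the summits of members and 363 (17.5%) differed in either direction after adjustment, 200 of them lower. The number higher was 257, 182 and 249 without replicates 1, 2 and 3. Calls followed base composition: the median odds ratio was 1.91 for the 36 hexamers with no G or C and 0.416 for the 36 made of G and C alone. The same medians were 2.54 and 0.281 in optimal regions, and 1.29 and 0.774 in other weaker regions.

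The 10 hexamers of highest odds ratio in the optimal regions were read in the members, which share no region with that set. Of these 10, 8 were higher at member summits than in their flanks. Of the 7 among them made of A and T only, all 7 were, as were 35 of all 36 such hexamers (97.2%), so these calls do not set them apart from other words of the same composition. AATATT was in 19.0% of member summits and 7.03% of flanks (odds ratio 3.34, exact adjusted p = 3.2e-12), in 18.4% of optimal and in 12.3% of other weaker summits. AAATAT was in 34.7% of member summits and 17.7% of flanks (odds ratio 2.56, exact adjusted p = 9.6e-14). Of the 10, 7 were more frequent in members than in other weaker regions by Fisher's exact test, and all 7 consist of A and T only. At pooled ranks down to 8000, 1 of the 10 still was, TATTAA, with 21.4% against 15.0% (odds ratio 1.54, exact adjusted p = 0.0484).

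Some of the 10 were rarer in members than in optimal regions. ATACTA was in 4.32% of members, 4.55% of other weaker regions and 7.82% of optimal regions, so members were below optimal regions (odds ratio 0.533, exact adjusted p = 1.7e-04). TACTAA was in 5.30%, 4.83% and 7.79%, again below optimal regions (odds ratio 0.662, exact adjusted p = 0.0121). ATTTAA, made of A and T only, was in 24.9% of members and 29.8% of optimal regions (odds ratio 0.779, exact adjusted p = 0.00435). CTAGTA and ATACTA did not pass against the members' own flanks (exact adjusted p = 0.253 and 0.273), whereas TACTAA did (adjusted p = 0.0234). Against the 925 weakest optimal regions none of the 3 differences passed, with ATACTA in 5.51% (odds ratio 0.775, exact adjusted p = 0.565), TACTAA in 5.95% (odds ratio 0.885, adjusted p = 0.767) and ATTTAA in 26.4% (odds ratio 0.924, adjusted p = 0.758). Outside this set of 10, TCTAAA, printed above at lncRNA:CR45668, was in 10.4% of member summits and 3.46% of flanks (odds ratio 3.17, exact adjusted p = 8.3e-07).

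Among 18 consensus sequences of known factors and core promoter elements, the TATA box TATAAA, which positions the transcription machinery, was in 20.4% of member summits and 11.0% of flanks (odds ratio 1.99, adjusted p = 1.4e-06, exact McNemar test). The forkhead word TAAACA was in 14.5% and 9.95% (odds ratio 1.56, exact adjusted p = 0.0170). The GAGA element GAGAGAG, the word read by GAGA factor at many fly promoters, was lower at the summits, with 0.865% against 2.92% in flanks (odds ratio 0.283, exact adjusted p = 0.0119). Optimal regions had nearly the same shares, 0.966% at summits and 2.91% in flanks, and other weaker regions had 1.56% and 1.68%. The remaining 15 did not pass. Without replicates 1, 2 and 3 in turn, with more members, 6, 5 and 5 of the 18 passed. A match of letters is a description and not a measured site, and the TATA box is among the A and T words of which 97.2% were higher at the summits. Among hexamers with 1 G or C, such as TAAACA, 47.4% were. The hexamers within GAGAGAG hold 3 G, and the median odds ratio of hexamers with 3 G or C was 0.827 in members.

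Compared with other weaker regions, TATAAA (15.8%, odds ratio 1.37, adjusted p = 0.00513), TAAACA (11.5%, odds ratio 1.30, adjusted p = 0.0447) and the Motif 1 core GGTCACAC (1.62% of members, 0.673% of other weaker regions, odds ratio 2.43, adjusted p = 0.0337) were higher in members by Fisher's exact test. None of the 18 passed at pooled ranks down to 12000 or to 8000. Against optimal regions 0 of the 18 passed and 3 had an unadjusted p under 0.05. This count depended on how members were chosen: 3, 4 and 2 passed without replicates 1, 2 and 3, and 7 with the 15000 strongest regions per replicate, settings that admit more members. The lowest adjusted p was that of the CTCF core AGNNGGCGC, in 0.649% of members and 1.93% of optimal regions (odds ratio 0.331, exact adjusted p = 0.0565).

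Members lay somewhat nearer to optimal regions than other weaker regions did. A summit within 2000 bp of an optimal summit was found for 25.6% of members and 22.2% of other weaker regions (odds ratio 1.21, p = 0.0154, Fisher's exact test), and at pooled ranks down to 12000 the odds ratio was 0.980 (p = 0.861). The median distance to the nearest optimal summit was 4635 bp for members and 5679 bp for other weaker regions. The X chromosome held 200 members, 21.6% (95% exact interval 19.0 to 24.4), beside 17.3% of other weaker and 17.8% of optimal regions and 17.6% of the length of the arms. Arm 2L held 15.1% (12.9 to 17.6), beside 18.7% and 18.9%. The arms were not tested. Of the members, 4 (0.432%) lay in annotated transposable elements.

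Of 13945 protein-coding genes on these arms, 308 (2.21%) had a member within 500 bp of a start, and 270 (1.94%) had a member and no optimal summit there. These 270 genes are where the members add a start not reached by the optimal set, which touched 3469 genes (24.9%), and 38 genes had both. Without replicates 1, 2 and 3, with more members, the 270 became 504, 433 and 534. Another 3274 genes (23.5%) had other weaker summits only. In introns of protein-coding genes lay 353 members, and in 168 of these cases (47.6%) the host gene carried an optimal summit at a start, against 43.1% for other weaker regions. A start shared by neighbouring genes counts for each of them.

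Among the 20 members of highest signal, 12 lay in introns, 7 in promoters and 1 in intergenic sequence, and 7 had a protein-coding start within 1000 bp. CG14502, 341 bp downstream of the start, had signals of 42.2, 79.2 and 67.3 in replicates 1, 2 and 3. CG5160, 344 bp upstream, had 40.6, 84.8 and 62.7. CG45085, 63 bp upstream, had 67.4, 58.5 and 67.1. Relative to the median member (44.7, 66.5 and 56.9), the first pair was low in replicate 1 and high in the others, and CG45085 was high in replicates 1 and 3 and low in replicate 2. CG34376, 157 bp upstream, had 63.8, 75.9 and 52.8. Cow, which encodes a secreted proteoglycan that binds Wingless, had 36.5, 68.1 and 76.2 at 134 bp upstream. It was near the limit in replicate 1, at rank 9835, and stronger in replicate 3, at rank 5171. Nplp1, a neuropeptide precursor, had 42.0, 89.2 and 57.1 at 363 bp upstream. E2f2, a repressive E2F factor of the cell cycle, had 64.7, 58.4 and 87.0 at 205 bp downstream. The replicates thus ordered these genes differently although each gene passed in all of them.

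Gene groups are given as counts beside the 1.94% of all protein-coding genes with a member and no optimal summit, without a test. Chromatin regulators had a few. In the Polycomb group these were 2 of 20 genes, Asx and Pc, the latter encoding the chromodomain protein that reads methylated histone H3. In the trithorax group and remodellers they were 3 of 29 genes, namely fs(1)h, a bromodomain protein, Bap55, an actin-related subunit of the Brahma complex, and Utx, a histone demethylase. The member at Pc lay 51 bp from the start and had signals of 42.1, 58.8 and 67.2 in replicates 1 to 3, below the median member in replicates 1 and 2. The member at fs(1)h lay 173 bp from its start, nearer to a start of the neighbouring gene mys, and had signals of 70.4, 101.4 and 56.0, above the median member in replicates 1 and 2. Nipped-B, the cohesin loader, was the 1 of 23 architectural proteins.

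Signalling and patterning genes were few in number. In the Dpp pathway, the fly BMP pathway, 3 of 21 genes had a member and no optimal summit: cv-2, a secreted BMP-binding protein, shn, a zinc finger cofactor of Mad, and sax, a type I receptor whose member lay nearer to a start of Nop17l. The member at sax had a low pooled rank, 10911. The member at cv-2 had signals of 45.1, 57.5 and 67.1, and that at shn had 60.1, 71.8 and 58.9, above the median member in all 3 replicates. E(spl)m8-HLH, a repressor induced by Notch, was the 1 of 26 Notch pathway genes, and S, which escorts EGF receptor ligands, the 1 of 22 in the EGF receptor pathway. For the member at S the nearest start belonged to ast. Hr39, a nuclear receptor, was 1 of 20 ecdysone response genes, insc, which orients neuroblast division, 1 of 29 neural fate factors, and pnr, a GATA factor, 1 of 14 nuclear receptors and GATA factors. For the member at insc the nearest start belonged to sktl, and the pooled rank was low, at 17286. Of 14 Hox genes and cofactors none had a member, while 12 had other weaker regions only. The same count was 0 of 15 gap and maternal genes, 0 of 25 pair-rule and segment polarity genes, 0 of 28 muscle genes and 0 of 17 forkhead factors.

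Housekeeping genes differed in how many already carried optimal regions. Of 93 cytosolic ribosomal protein genes, 72 had an optimal summit and 2 had a member only, RpL15 and RpL6, whereas 29 of 70 genes of the general transcription machinery had an optimal summit. The member at RpL15, 28 bp from the start, was one of the stronger, with signals of 78.8, 89.6 and 59.8, above the median member in each replicate. Of 75 mitochondrial ribosomal protein genes 3 had a member only, mRpL52, mRpL36 and mRpL28. The nearest start belonged to CG12107 for the member at mRpL52, and to CG7550 for that at mRpL36. Cell cycle regulators had 3 of 31, namely E2f2, dap, an inhibitor of cyclin-dependent kinase, and Bub1, a spindle checkpoint kinase. The member at Bub1 lay 319 bp from its start, and the nearest start belonged to Nin. Splicing factors had 2 of 36, SmD1 and U2af38, and the general transcription machinery 3 of 70, CycT, Trf2 and MED10. The members at SmD1 and U2af38 lay 301 and 415 bp from their starts. There the nearest starts belonged to Ptp69D and Stip1. Among genes of the ZAD class of zinc finger proteins, 4 of 68 had a member and no optimal summit, the strongest being CG6689, with signals of 41.2, 74.2 and 72.2 at 95 bp from the start, and CG31109 and CG6654 next.

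Several groups had none. The count was 0 of 48 proteasome subunits, 0 of 33 V-ATPase subunits, 0 of 180 sensory receptors, 0 of 120 cuticle proteins, 0 of 26 serine proteases and 0 of 20 antimicrobial peptides. Of these, the proteasome and V-ATPase lists had 13 genes each with an optimal summit, whereas the receptor, cuticle, protease and peptide genes had 2, 1, 0 and 0. Among RNA genes, members lay at the starts of 5 of 269 snoRNA genes, 0 of 290 tRNA genes and 0 of 32 snRNA genes.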

How the data were processed

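The 3 samples are biological replicates named by the number in the labels. The deposited files list regions with a signal value and a summit. Per the labels' notes, the authors called relaxed lists per replicate and on pooled reads against a control and thresholded the optimal set on the irreproducible discovery rate. No source used here gives the unit of the signal, the caller or the aligner, so signal was compared within a list or by rank. Read depth was not used here, and intervals cover counting error only. The authors' second score column was not used.

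The members, the 26 gene lists and the 18 consensus sequences were chosen with earlier results of these data known. Positions are on dm6, counted from 1. All regions lay within the lengths of the RefSeq assembly of that build, which gave the sequence. Annotation was Ensembl release 115 without transposable elements. A summit within 500 bp of a transcript start on arms 2L, 2R, 3L, 3R, 4 or X was promoter, and other summits were placed in untranslated, coding or noncoding exons before introns and intergenic sequence. Sequence windows reached 50 bp to either side of the summit, and flanks were centred 500 bp lower. The windows of the GC profile around summits were 51 bp wide. No sequence is printed from arm 2R or where a window overlaps an untranslated region.

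Shares were set against each other by two-sided exact tests, Fisher's for separate regions and McNemar's for paired windows, with Benjamini-Hochberg adjustment over the places, consensus sequences or hexamers. The constant 0.5 was added where a Fisher cell was empty and always to paired counts. Regions were the units of these tests. Neighbouring regions are not independent, and p-values do not measure the spread between embryos. Genes named are the nearest protein-coding start within 1000 bp of the 20 members of highest signal, up to 3 per gene list with a member and no optimal summit, and regions at the thresholds. The genes at printed sequences, genes whose start was nearest to a listed gene's member, loopin-1 and the genes with many members were named besides. Of the listed symbols, 37 did not match the annotation, and 1093 genes matched. The tools were scipy 1.17.1, bedtools 2.31.1, pandas 2.3.3, matplotlib 3.10.9, numpy 2.4.6 and Python 3.11.15, and the scripts were tested on simulated data. Alternatives covered the replicates required, the number of strongest regions, overlap, narrower ranges of pooled rank, closeness, windows, flanks, places and the dm3 lists.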

Additional observations from a re-analysis of the deposited data

How the results depend on the processing

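Of 374 values recomputed under other settings, 289 were classed as unchanged. An odds ratio was so classed when it kept its direction and side of the threshold, and a count when it stayed near the reported count. Asking for the other 2 replicates only, with each replicate left out in turn, gave 1591 to 1799 members, 5 to 6 consensus sequences against flanks, 2 to 5 against other weaker and 2 to 4 against optimal regions, 182 to 257 higher hexamers, 491 to 601 genes with a member, 433 to 534 with no optimal summit, and a coding exon odds ratio against optimal regions of 1.81 to 2.26. With the 15000 strongest regions per replicate there were 3333 members, 7 consensus sequences against flanks and 7 against optimal regions, 330 higher hexamers, 1031 and 905 genes, and a coding exon odds ratio of 1.93. With as many strongest regions per replicate as the optimal set holds, only 7 members were left, too few for most tests: odds ratios were 4.11 and 1.52 for promoters, 0.616 and 1.88 for GC and 1.39 for closeness, 0 places, consensus sequences or hexamers passed, and 4 and 3 genes remained; no value is given where a count was empty.

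At pooled ranks down to 12000, against other weaker regions, the odds ratios were 1.06 for promoters, 1.12 for intergenic sequence and 0.980 for closeness, and 0 consensus sequences passed. In that range 3 of the 14 place comparisons passed, all against optimal regions. At ranks down to 8000, a range added after seeing the data, they were 0.770, 1.37 and 0.844, with 1.10 for introns and 0.972 for upstream position, with 0 consensus sequences and again 3 place comparisons, all against optimal regions. Against the weakest optimal regions, also added later, odds ratios were 1.06 for GC, 0.709 for upstream position and 0.855 for 3' untranslated regions. An overlap of at least 50% gave 1.04 for intergenic sequence. Over 2000 bp from optimal summits, 1 consensus sequence passed against flanks and 1 against optimal regions. In promoters alone 0 passed against other weaker and 1 against optimal regions, and outside promoters 1 passed against other weaker regions. The cause of these shifts was not tested. No paired analysis was possible because the replicates form 1 group.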

Other observations

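Some genes held several members within their bodies, and these were named after their values were seen. The cell adhesion gene kirre, on the X chromosome, held 7 member and 26 optimal summits over 394149 bp. Pli, which encodes the ubiquitin ligase Pellino, held 6 members and 4 optimal summits in 29891 bp, more members than optimal summits. Kank held 4 members and 3 optimal summits in 26951 bp, and Nrg, an adhesion molecule of the nervous system, 4 and 3 in 37798 bp. CG12535 held 5 members and 8 optimal summits, and fz2, a Wingless receptor, 4 and 7 in 94399 bp. The distances between these summits were not analysed here, and long genes hold more summits of any class.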
